A study of Mus musculus with 8 samples.

Results

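The regulators of mitochondrial biogenesis described here are 10 mouse genes, taken by name: Ppargc1a, Ppargc1b, Esrra, Nrf1, Gabpa, Tfam, Tfb2m, Ppara, Ppard and Polrmt. They are 10 of the 20660 genes that could be named on the array, and all 18 of their probes are reported. Transcript levels were measured on 8 two-colour Agilent mouse arrays, 4 with RNA of gastrocnemius and 4 with RNA of tibialis anterior (TA). Each array carried 1 mouse lacking a single Eif6 allele (Eif6+/-, labelled with Cy5) and 1 wild-type mouse (WT, Eif6+/+, labelled with Cy3), with 4 such pairs per muscle. By the study's methods the mice were male C57BL6 littermates, and by its design they were 8 to 16 weeks old, matched for age and otherwise paired at random. Eif6 encodes a factor that acts in the initiation of translation, and the study asked what its partial loss does to muscle metabolism.

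Because Eif6+/- RNA carried Cy5 on every array, dye and genotype cannot be told apart. Gastrocnemius filled row 1 of the slide and TA row 2, so that place on the slide and muscle cannot be told apart. The scanner software marked between 38.7% and 48.6% of probes as well above background in a channel of an array, and the number of arrays limits the precision. All values below are log2 of Cy5 over Cy3, so that a positive value is a higher signal in the Eif6+/- mouse, or normalized log2 signals of a single channel. A probe was called when its adjusted p in limma, taken over all tested probes of the comparison, was under 0.1.

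New mitochondria need proteins from both the nuclear and the mitochondrial genome. PGC-1 alpha and PGC-1 beta, the coactivators encoded by Ppargc1a and Ppargc1b, bind transcription factors such as ERR alpha, the PPARs, NRF-1 and GABP, and these switch on nuclear genes for respiration and fat oxidation. Among the products are the factors that enter the mitochondrion and copy or transcribe its DNA, and in skeletal muscle the program is known for its response to endurance exercise and its high activity in oxidative fibres.

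Eif6 itself was the check on the labels. Its probe A_52_P85864 gave log2 ratios of -0.97, -1.15, -0.89 and -1.06 in gastrocnemius pairs 1 to 4 and -1.22, -1.03, -0.95 and -0.80 in TA pairs 1 to 4. The 4 WT gastrocnemius signals lay between 10.56 and 10.90 and the 4 Eif6+/- signals between 9.59 and 9.76, so the genotypes did not overlap. Eif6 fell by 1.02 in gastrocnemius (SD 0.11, n = 4, limma adjusted p = 0.0241) and by 1.00 in TA (SD 0.17, n = 4, adjusted p = 0.0109). The other probe, A_55_P1989013, fell by 1.13 and by 1.12. Markers of skeletal muscle fibre, 8 of 8, were well above background in both channels on all arrays of both muscles.

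Most regulators gave higher signals in Eif6+/- gastrocnemius, and they had no common direction in TA. Of 17 tested probes, 7 were called in gastrocnemius, all of them higher, where 13.8% of all tested probes were called, 8.08% higher and 5.68% lower. By the brightest probe of each gene, 5 of 10 regulators rose in gastrocnemius (Ppargc1a, Ppara, Gabpa, Tfb2m and Polrmt), where 15.4% of all genes were called and 9.85% rose. In TA 1 of 17 probes was called, for Tfb2m and higher, where 15.2% of all tested probes were called, 7.68% higher and 7.52% lower, a share no higher among the regulators than in the background. By gene it was 1 of 10, where 16.3% of all genes were called. The median log2 ratio of the 17 probes was 0.25 in gastrocnemius (range -0.17 to 0.97), beside 0.01 for all probes, and -0.04 in TA (range -0.20 to 0.32), beside 0.00. Taken array by array, the regulators' medians were 0.25, 0.09, 0.37 and 0.22 in gastrocnemius pairs 1 to 4 and 0.03, 0.13, -0.04 and -0.14 in TA pairs 1 to 4. All 4 gastrocnemius pairs thus lay above 0, pair 2 least, and the TA pairs lay on either side of it.

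The same held for single probes. In gastrocnemius 9 of 17 were above 0 on all 4 arrays and 0 below 0 on all 4, against 19.6% and 14.4% of all tested probes. In TA 3 were above 0 and 4 below 0 on all 4 arrays, against 17.9% and 16.8%. The gastrocnemius calls depend on pairs 3 and 4: without pair 3 or without pair 4 limma called 0 probes of any gene, Eif6 included, with 4204 and 4449 of 23802 at an unadjusted p under 0.05, among them 6 of the 17 regulator probes each time. Without pair 1, 2956 probes were called, 3 of them regulator probes, and without pair 2, 2188 and 5. The 7 regulator calls were also lost with the scanner software's own processed signals in place of the normalization used here, under which the only regulator probe called was an Nrf1 probe, lower. The median of the 17 regulator probes was then 0.32 beside 0.04 for all probes, and 8 of 17 had an unadjusted p under 0.05, against 6226 of 23802 tested probes, of which 2409 were called. With an offset of 0 in the background correction, the calls of the brightest probes of Ppara, Gabpa and Polrmt were lost.

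**Figure D1:**
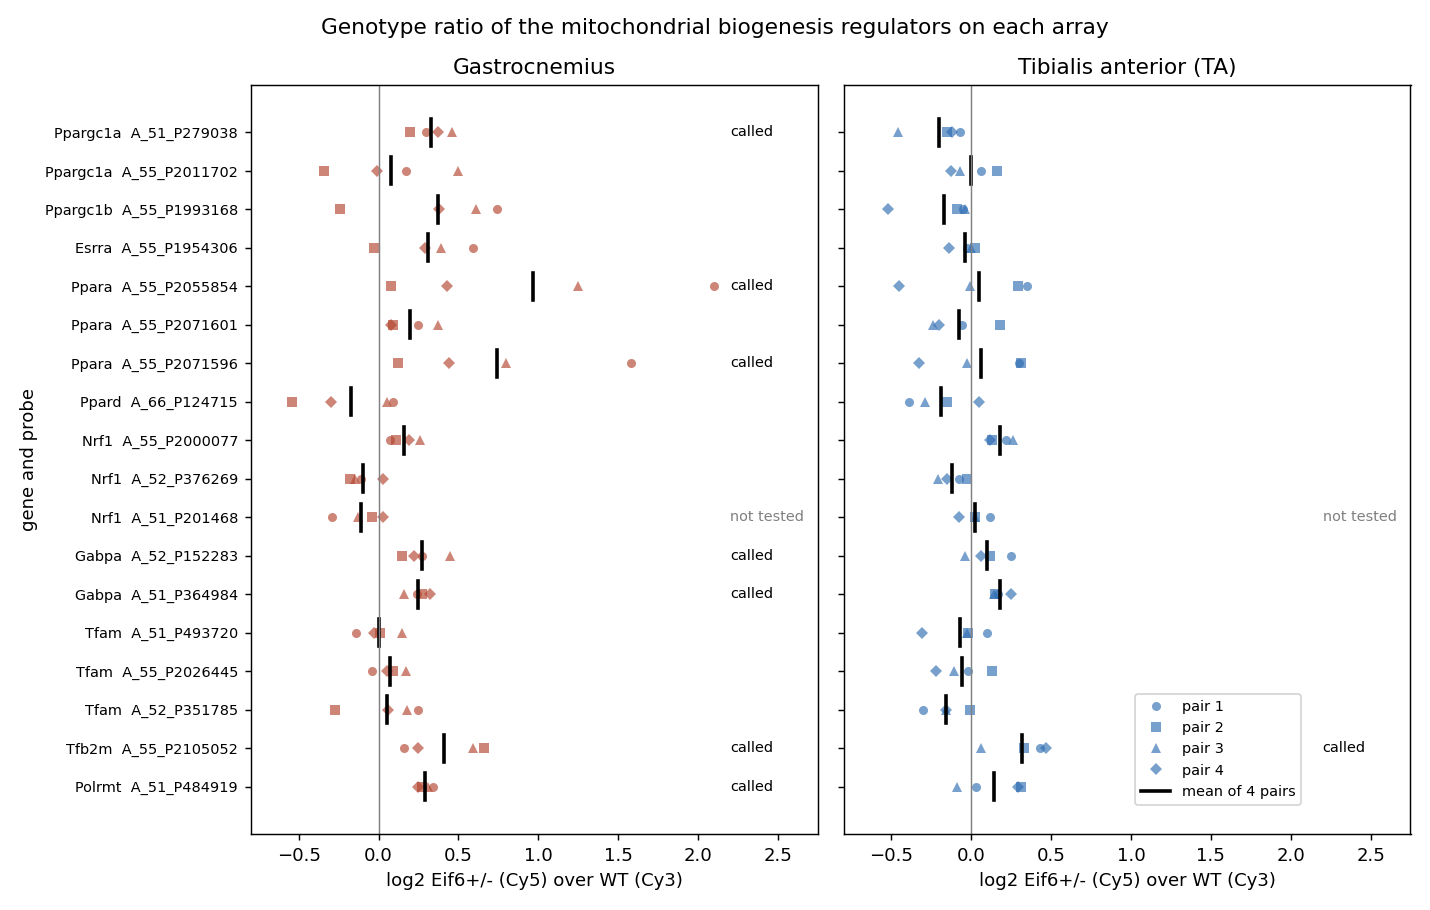
Each row is a probe of a regulator, and each symbol is the log2 ratio of Eif6+/- (Cy5) over WT (Cy3) on an array, with pairs 1 to 4 as different shapes and the mean as a black bar. In gastrocnemius the bars of 14 of 17 tested probes lie above 0 and 7 are called, and in TA 8 lie above 0 and 1 is called.

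Ppargc1a, the gene of PGC-1 alpha and the best known inducer of the program, gave ratios of opposite sign in the muscles. With its brighter probe, A_51_P279038, the WT gastrocnemius signals were 9.47, 9.36, 9.18 and 9.51 in pairs 1 to 4 and the Eif6+/- signals 9.77, 9.57, 9.64 and 9.88. Each Eif6+/- mouse exceeded every WT mouse in gastrocnemius, although the lowest Eif6+/- value, in pair 2, lay just above the highest WT value. In TA the WT signals were 9.69, 9.77, 9.84 and 9.69 and the Eif6+/- signals 9.62, 9.62, 9.37 and 9.57, so here every Eif6+/- mouse lay below every WT mouse. The log2 ratios were 0.30, 0.20, 0.46 and 0.37 in gastrocnemius, a 1.26-fold rise (mean 0.33, SD 0.11, n = 4, limma adjusted p = 0.053), and -0.07, -0.15, -0.46 and -0.12 in TA (mean -0.20, SD 0.18, n = 4, adjusted p = 0.167), which was not called. Pair 3 held the most extreme value in both muscles, in opposite directions.

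The dimmer Ppargc1a probe, A_55_P2011702, did not show this split. Its log2 ratios were 0.17, -0.34, 0.50 and -0.01 in gastrocnemius (mean 0.08, SD 0.35, n = 4, adjusted p = 0.736) and 0.06, 0.16, -0.07 and -0.13 in TA (mean 0.00, SD 0.13, n = 4, adjusted p = 0.984). The pairs fell on both sides of 0 in each muscle, and the WT mouse of gastrocnemius pair 2 stood far above the other WT mice on this probe, at 7.73 against 6.80 to 6.96.

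Ppargc1b encodes PGC-1 beta, the related coactivator. Its log2 ratios were 0.74, -0.24, 0.61 and 0.38 in gastrocnemius (mean 0.37, SD 0.44, n = 4, adjusted p = 0.182). Pair 2 was the exception, and without it the probe was called with a mean of 0.58 (adjusted p = 0.0578, the lowest over all alternatives, which reached 0.456). In TA the values were -0.05, -0.09, -0.04 and -0.52 (mean -0.17, SD 0.23, n = 4, adjusted p = 0.263), all below 0 and near 0 in all pairs but pair 4.

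**Figure D2:**
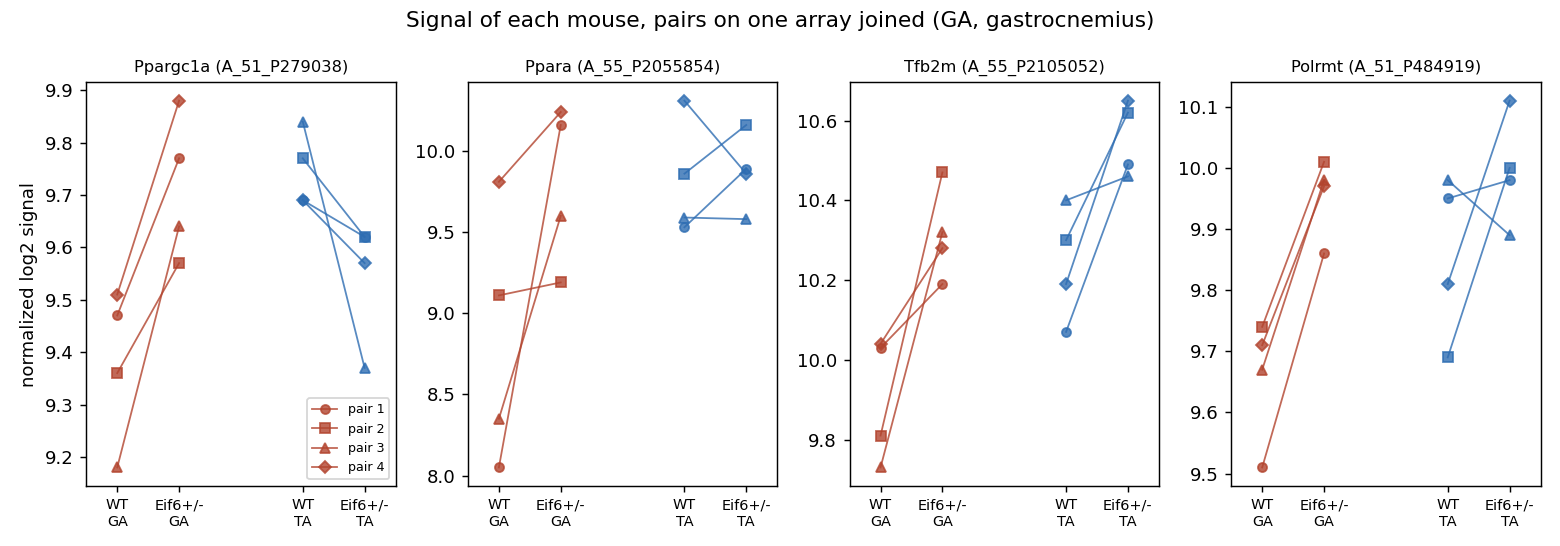
Normalized log2 signal of the WT (Cy3) and Eif6+/- (Cy5) mouse of each pair, joined by a line, for the brightest probe of Ppargc1a, Ppara, Tfb2m and Polrmt in gastrocnemius (GA, red) and TA (blue). All 4 lines climb in gastrocnemius for each gene, while for Ppargc1a all 4 lines descend in TA. The vertical scales differ between genes and do not start at 0.

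Among the nuclear receptors that PGC-1 proteins activate, Ppara gave the largest ratios. It encodes PPAR alpha, a receptor for fatty acids that drives genes of fat oxidation. On its brightest probe, A_55_P2055854, the WT gastrocnemius signals were 8.05, 9.11, 8.35 and 9.81 in pairs 1 to 4, and the Eif6+/- signals 10.16, 9.19, 9.60 and 10.24. The genotypes overlapped, since the WT mouse of pair 4 lay above the Eif6+/- mice of pairs 2 and 3, and the WT mice of pairs 1 and 3 were the low ones. The log2 ratios of 2.10, 0.08, 1.25 and 0.43 gave a 1.95-fold rise (mean 0.97, SD 0.90, n = 4, limma adjusted p = 0.0982), which was lost without pair 1, the pair with the largest ratio (without it the mean was 0.59). In TA the same probe gave 0.35, 0.29, -0.01 and -0.45 (mean 0.05, SD 0.37, n = 4, adjusted p = 0.836), on either side of 0.

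A second Ppara probe, A_55_P2071596, followed the same pairs, with gastrocnemius log2 ratios of 1.58, 0.12, 0.80 and 0.44 (mean 0.74, SD 0.63, n = 4, adjusted p = 0.0861) and a TA mean of 0.06. Its gastrocnemius mean was 0.45 without pair 1, still called, and 1.11 with the processed signals, not called. The third, A_55_P2071601, gave smaller gastrocnemius values of 0.25, 0.09, 0.37 and 0.08 (mean 0.20, SD 0.14, n = 4, adjusted p = 0.178) and was not called. All 3 Ppara probes were above 0 in all 4 gastrocnemius pairs, with the higher values in pairs 1 and 3. With no filter on dim probes the called Ppara probes missed the threshold.

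Esrra encodes ERR alpha, an orphan receptor that binds the promoters of many respiratory genes. Its WT gastrocnemius signals were 12.24, 12.54, 12.36 and 12.59 and its Eif6+/- signals 12.83, 12.51, 12.74 and 12.87. Apart from pair 2, each Eif6+/- mouse lay above all WT mice. The log2 ratios were 0.59, -0.03, 0.39 and 0.29 (mean 0.31, SD 0.26, n = 4, adjusted p = 0.124), not called, although SAM at a false discovery rate of 0.1, a fit sharing the spread of both muscles and the fit without pair 2 called it. In TA the ratios of -0.03, 0.02, 0.00 and -0.14 (mean -0.04, SD 0.07, n = 4, adjusted p = 0.754) stayed near 0.

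Ppard encodes PPAR delta, the PPAR with a strong role in muscle fibres. Its log2 ratios were 0.09, -0.54, 0.05 and -0.30 in gastrocnemius (mean -0.17, SD 0.30, n = 4, adjusted p = 0.385) and -0.39, -0.15, -0.29 and 0.05 in TA (mean -0.19, SD 0.19, n = 4, adjusted p = 0.183). It had the lowest mean of the regulators in gastrocnemius and was called in neither muscle, although without TA pair 4 it was called there, lower (adjusted p = 0.0927, the lowest over all alternatives, which reached 0.51).

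Nrf1 and Gabpa encode the factors most closely tied to nuclear genes of the respiratory chain. Gabpa, the DNA-binding subunit of GABP, rose in gastrocnemius on both of its probes. On A_52_P152283 the log2 ratios were 0.27, 0.15, 0.45 and 0.22 (1.21-fold, mean 0.27, SD 0.13, n = 4, limma adjusted p = 0.0864), and on A_51_P364984 they were 0.24, 0.27, 0.16 and 0.32 (1.19-fold, mean 0.25, SD 0.07, n = 4, adjusted p = 0.0841). All 8 values lay above 0, in a narrow band, yet both calls were lost when any 1 of the 4 pairs was left out. In TA the first probe gave 0.25, 0.12, -0.04 and 0.06 (mean 0.10, SD 0.12, n = 4, adjusted p = 0.429) and the second 0.17, 0.15, 0.14 and 0.25 (mean 0.18, SD 0.05, n = 4, adjusted p = 0.131). The second was above 0 in every TA pair as well, and was called there when the arrays were normalized by loess alone, in the deposited table and by SAM at a false discovery rate of 0.1 (adjusted p range over all alternatives 0.0787 to 0.313). In the deposited table its gastrocnemius call was lost.

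The probes of Nrf1, which encodes NRF-1, went opposite ways. A_55_P2000077 gave 0.07, 0.11, 0.26 and 0.19 in gastrocnemius (mean 0.16, SD 0.08, n = 4, adjusted p = 0.214) and 0.22, 0.13, 0.26 and 0.12 in TA (mean 0.18, SD 0.07, n = 4, adjusted p = 0.129). A_52_P376269, assigned to another RefSeq transcript of the gene, gave -0.11, -0.18, -0.15 and 0.03 in gastrocnemius (mean -0.10, SD 0.09, n = 4, adjusted p = 0.424) and -0.08, -0.03, -0.21 and -0.15 in TA (mean -0.12, SD 0.08, n = 4, adjusted p = 0.302). The first was above 0 on all 8 arrays and the second below 0 on all but 1, so no single direction can be given for Nrf1. Loess alone and the deposited table called the first in TA, and the scanner software's processed signals called the second lower in both muscles. With the processed signals the second had a gastrocnemius mean of -0.55. Its lowest TA mean over all alternatives was -0.49. The third probe, A_51_P201468, was too dim to test: in gastrocnemius it was well above background on 1 array in each channel.

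Tfb2m, Polrmt and Tfam make up the machinery that transcribes mitochondrial DNA. Tfb2m, which helps the polymerase open the promoter, was the regulator called in both muscles. In gastrocnemius its WT signals were 10.03, 9.81, 9.73 and 10.04 and its Eif6+/- signals 10.19, 10.47, 10.32 and 10.28, and in TA the WT signals were 10.07, 10.30, 10.40 and 10.19 and the Eif6+/- signals 10.49, 10.62, 10.46 and 10.65. Every Eif6+/- mouse lay above every WT mouse in each muscle. The log2 ratios of 0.16, 0.66, 0.59 and 0.25 in gastrocnemius gave a 1.33-fold rise (mean 0.41, SD 0.25, n = 4, limma adjusted p = 0.0641). Those of 0.43, 0.33, 0.06 and 0.47 in TA gave a 1.25-fold rise (mean 0.32, SD 0.18, n = 4, adjusted p = 0.0598). The rise was smallest in pair 1 of gastrocnemius and in pair 3 of TA, and leaving out pair 2 in gastrocnemius, or pair 1, 2 or 4 in TA, ended the call. In TA an offset of 0, the processed signals and SAM at a false discovery rate of 0.05 ended it too.

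Polrmt encodes the mitochondrial RNA polymerase. Its WT gastrocnemius signals were 9.51, 9.74, 9.67 and 9.71, and its Eif6+/- signals 9.86, 10.01, 9.98 and 9.97. Each Eif6+/- mouse lay above all WT mice, and the ratios of 0.34, 0.27, 0.31 and 0.25 were the most even of any regulator, a 1.23-fold rise (mean 0.29, SD 0.04, n = 4, limma adjusted p = 0.0548), which was lost when any 1 pair was left out. In TA the ratios were 0.03, 0.31, -0.09 and 0.29 (mean 0.14, SD 0.20, n = 4, adjusted p = 0.345), with pairs 2 and 4 up to the gastrocnemius values and pairs 1 and 3 near 0.

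Tfam, which packs mitochondrial DNA and starts its transcription, gave ratios around 0. On its brightest probe, A_51_P493720, they were -0.14, 0.01, 0.15 and -0.03 in gastrocnemius (mean -0.00, SD 0.12, n = 4, adjusted p = 0.991) and 0.10, -0.02, -0.03 and -0.31 in TA (mean -0.07, SD 0.17, n = 4, adjusted p = 0.642). The other probes had means of 0.07 and 0.05 in gastrocnemius and -0.06 and -0.16 in TA. None of the 3 Tfam probes was called in either muscle under any alternative tried, whereas Tfb2m and Polrmt rose in gastrocnemius.

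Whether the genotype ratio differed between the muscles was tested directly, as gastrocnemius minus TA. limma called 0 of 22765 probes, so the background was 0%, and 0 of 17 regulator probes. At an unadjusted p under 0.05 there were 1734 probes in all and 6 of the regulators. With an array left out, these counts ranged from 1013 to 2966 probes in all and from 1 to 7 of the regulators. The processed signals gave 3 of the regulators. The difference was above 0 for 16 of 17 regulator probes, with a median of 0.16 beside 0.01 for all probes. For Ppargc1a A_51_P279038 it was 0.53 (SE 0.11, adjusted p = 0.636), for Ppargc1b 0.55 (SE 0.20, adjusted p = 0.636) and for Esrra 0.35 (SE 0.13, adjusted p = 0.636). The brightest Ppara probe differed by 0.92 (SE 0.37, adjusted p = 0.636). The ratios of the remaining regulators lay closer together, as for Tfb2m at 0.09 (SE 0.14, adjusted p = 0.887) and Polrmt at 0.16 (SE 0.11, adjusted p = 0.725). Only the Ppargc1a probe was above 0 in all 4 gastrocnemius pairs and below 0 in all 4 TA pairs, a pattern of 0.369% of all probes tested in both muscles. No regulator passed the test of the difference, so a call in gastrocnemius beside none in TA is not shown to be particular to that muscle.

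In WT mice the regulators tended to have lower signals in gastrocnemius than in TA. Of 17 probes 8 were called lower in gastrocnemius and 0 higher, where 18.5% of all tested probes were called, 11.6% lower and 6.83% higher. By the brightest probe, 6 of 10 genes were lower and 0 higher, where 21.1% of all genes were called, 13.2% lower and 7.9% higher. On 7 of 17 probes all 4 gastrocnemius signals lay below all 4 TA signals, as on 12.2% of all probes. The median difference was -0.26, beside -0.03 for all probes. Esrra had WT signals of 12.86, 12.86, 12.80 and 13.02 in TA, all above its gastrocnemius signals given earlier (difference -0.45, SE 0.10, limma adjusted p = 0.0181). Ppargc1a A_51_P279038 likewise did not overlap (gastrocnemius mean 9.38, TA mean 9.75, difference -0.36, SE 0.09, adjusted p = 0.0311). The brightest Ppara probe had the largest difference, -0.99 (SE 0.34, adjusted p = 0.089), with overlapping values, because its WT signal in gastrocnemius pair 4, 9.81, reached the TA range of 9.53 to 10.31. Its call was lost under 5 of 8 alternatives and in 6 of 8 fits with an array left out.

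Gabpa A_52_P152283 (difference -0.37, SE 0.08, adjusted p = 0.0245) and Tfb2m (difference -0.34, SE 0.10, adjusted p = 0.0635) were lower in WT gastrocnemius as well. So were Tfam A_51_P493720 (difference -0.26, SE 0.08, adjusted p = 0.0732) and A_55_P2026445 (difference -0.25, SE 0.09, adjusted p = 0.0947). With the pair number as a block, the calls of Tfb2m and of these Tfam probes were lost. That of A_55_P2026445 was lost under 7 of 8 alternatives and in 7 of 8 fits with an array left out. Those of Tfb2m and A_51_P493720 were each lost in 5 of 8 such fits. Ppard stood at the same mean signal, 9.54, in both muscles. In Eif6+/- mice the mean signals of Ppargc1a A_51_P279038 were 9.71 in gastrocnemius and 9.55 in TA, and those of the brightest Ppara probe 9.80 and 9.87, levels that sit closer to each other than in WT. The WT signals enter both this comparison and the genotype ratios, so a low WT gastrocnemius signal raises the ratio and lowers the WT difference at once, and the comparisons are not independent.

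These WT calls depend on the scaling between arrays. With loess alone 1 regulator probe was called, that of Esrra, while the median of the regulators was -0.19 beside 0.03 for all probes (-0.26 and -0.03 with the scaling) and 7 of 17 had an unadjusted p under 0.05. The share of all calls that were higher in gastrocnemius went from 37% to 55.2% with it. With the scanner software's processed signals it was 87.7%, the median of all probes moved to 0.21 and 0 regulator probes were called (limma, 2 of 17 at an unadjusted p under 0.05, against 5607 of 22765 tested probes, of which 2960 were called), while their median was -0.14.

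**Figure D3:**
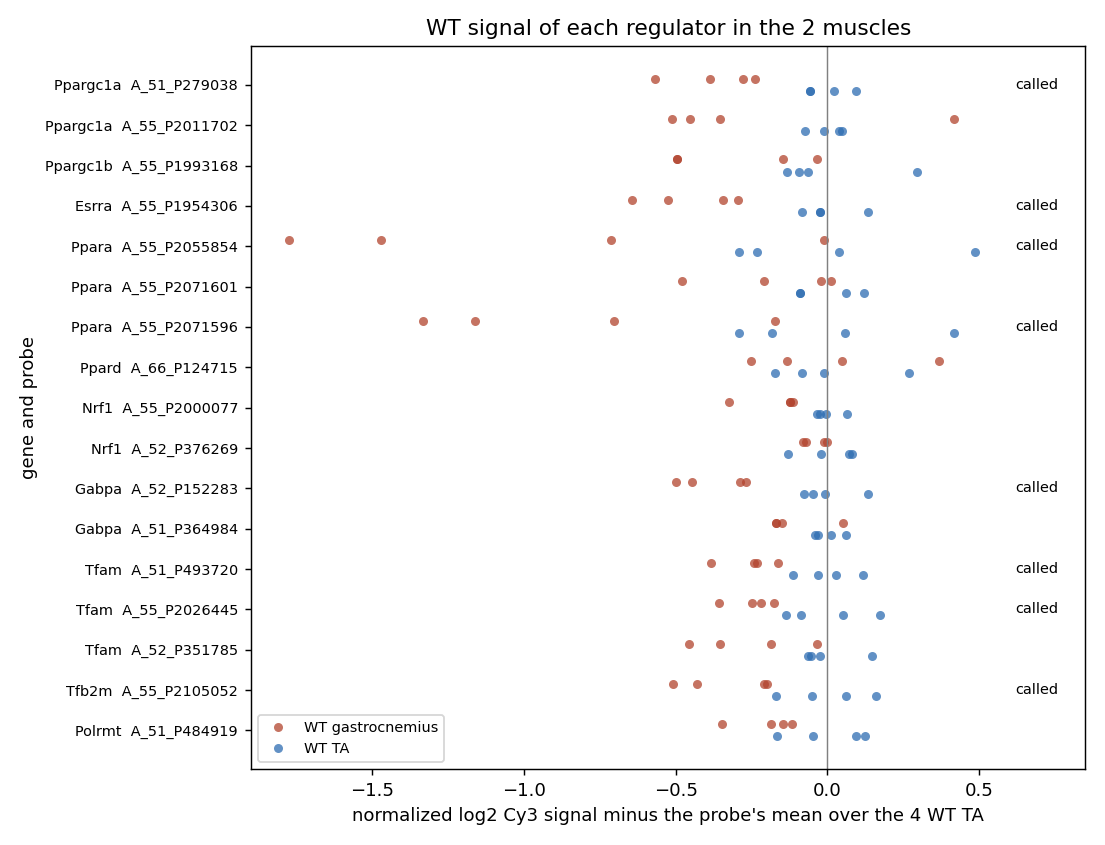
WT (Cy3) log2 signal of each regulator probe in gastrocnemius (red) and TA (blue), 4 mice per muscle, after subtracting the probe's mean over the 4 TA mice. Gastrocnemius points lie to the left of the TA points without overlap for Ppargc1a A_51_P279038 and Esrra, and overlap for Ppara and Ppard.

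The genes around the regulators were read in 6 lists, each gene by its brightest probe, beside a median of 0.02 and shares of 9.85% rising and 5.53% falling for all genes in gastrocnemius (8.98% and 7.29% in TA). Known targets of PGC-1, ERR and the NRFs had the highest list median in gastrocnemius, where 9 of 26 rose and 0 fell, with that median at 0.28 and 24 genes above 0. Slc25a4, the ADP/ATP carrier of the inner membrane, rose by 1.01 (SD 0.14, n = 4, limma adjusted p = 0.0241), with values from 0.87 to 1.21. Sdhb, a subunit of complex II, rose by 0.78 (SD 0.38, n = 4, adjusted p = 0.0357), with values from 0.41 to 1.16. The list's medians in pairs 1 to 4 were 0.50, 0.04, 0.37 and 0.21, lowest in pair 2, as for the regulators.

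In TA the same 26 targets split, with 5 higher, 4 lower and a median of -0.02. Tomm20, a receptor of the outer-membrane import pore, rose by 0.44 (SD 0.20, n = 4, adjusted p = 0.0333) and Mdh2, mitochondrial malate dehydrogenase, by 0.42 (SD 0.38, n = 4, adjusted p = 0.0865). Mb, the oxygen store myoglobin, fell by 0.54 (SD 0.45, n = 4, adjusted p = 0.0656). Other called targets were Slc25a4 (0.39), Atp5b (0.38) and Cs (0.24), higher, and Cox4i1 (-0.26) and Mfn1 (-0.25), lower.

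Factors that express and copy mitochondrial DNA rose in gastrocnemius in 7 of 19 cases and fell in 0, with a median of 0.13. Lrpprc, which keeps mitochondrial messenger RNA stable, rose by 0.72 (SD 0.14, n = 4, adjusted p = 0.0269), and Mterf2, a factor of the mitochondrial transcription termination family, by 0.52 (SD 0.24, n = 4, adjusted p = 0.0416). In TA 2 of 19 rose and 2 fell, with a median of 0.11, shares near the 8.98% and 7.29% of all genes. Lrpprc rose there too, by 0.32 (SD 0.11, n = 4, adjusted p = 0.0412), with Tfb1m, the paralog of Tfb2m, by 0.24 (SD 0.10, n = 4, adjusted p = 0.0764). The genes that fell were Twnk, the helicase, by 0.31 (SD 0.22, n = 4, adjusted p = 0.0806) and Polg, the DNA polymerase, by 0.24 (SD 0.15, n = 4, adjusted p = 0.09995). The call of Polg was lost under 9 of 11 alternatives and that of Twnk under 6 of 11. The 13 genes encoded in mitochondrial DNA itself had 0 named probes, so what these factors transcribe is not described here.

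Of the targets of the PPARs, 2 of 28 rose in gastrocnemius and 1 fell, with a median of 0.11, shares near the 9.85% and 5.53% of all genes. Etfdh, which passes electrons from fat oxidation to ubiquinone, rose by 0.48 (SD 0.36, n = 4, adjusted p = 0.0797), and Mlycd, which breaks down malonyl-CoA, by 0.33 (SD 0.13, n = 4, adjusted p = 0.06). Ucp2, an inner-membrane carrier, fell by 0.64 (SD 0.28, n = 4, adjusted p = 0.0357). In TA 6 of 28 fell and 0 rose, with a median of -0.15 and 24 below 0. The list's medians in TA pairs 1 to 4 were -0.35, 0.01, -0.00 and -0.41, so pairs 2 and 3 lay near 0. Ech1, an auxiliary enzyme of fat oxidation, fell by 0.63 (SD 0.21, n = 4, adjusted p = 0.0136) and Hadha, a subunit of the trifunctional protein, by 0.57 (SD 0.28, n = 4, adjusted p = 0.026).

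Signalling genes upstream of PGC-1 held more calls downward than upward, with 2 of 42 higher and 7 lower in gastrocnemius and 2 of 42 higher and 6 lower in TA. Their medians were -0.02 and 0.00. Mef2a, a muscle transcription factor that acts on Ppargc1a, rose by 0.45 (SD 0.23, n = 4, adjusted p = 0.0512) in gastrocnemius and by 0.46 (SD 0.05, n = 4, adjusted p = 0.0153) in TA. Atf2 rose by 0.30 (SD 0.12, n = 4, adjusted p = 0.0663) in gastrocnemius and Ppp3r1, the regulatory subunit of calcineurin, by 0.25 (SD 0.08, n = 4, adjusted p = 0.0667) in TA. Tfeb, a regulator of lysosome genes, fell by 0.56 (SD 0.32, n = 4, adjusted p = 0.0494) and Prkag3, an AMPK subunit of skeletal muscle, by 0.53 (SD 0.30, n = 4, adjusted p = 0.0513) in gastrocnemius. In TA the largest falls with 1 sign in all 4 pairs were Mef2d, by 0.38 (SD 0.26, n = 4, adjusted p = 0.0601), and Stk11, the kinase that activates AMPK, by 0.28 (SD 0.18, n = 4, adjusted p = 0.0789). Tfeb (-0.45, adjusted p = 0.06) and the corepressor Ncor1 (-0.35, adjusted p = 0.0982) were also called lower in TA, with pair 4 above 0. The probes of Ncor1 disagreed: of 3 tested, 1 had a mean above 0 in TA and 2 in gastrocnemius.

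Partner factors gave 3 of 21 higher and 1 lower in gastrocnemius (median 0.07) and 1 of 21 higher and 3 lower in TA (median -0.06). Esrrb, a relative of Esrra, rose by 0.65 in gastrocnemius (SD 0.51, n = 4, adjusted p = 0.0755), the orphan receptor Nr4a1 by 0.53 (SD 0.41, n = 4, adjusted p = 0.0777) and the coactivator Ncoa2 by 0.29. Nr1d1, the circadian repressor REV-ERB alpha, fell by 0.81 in gastrocnemius (SD 0.63, n = 4, adjusted p = 0.0693) and by 0.67 in TA (SD 0.50, n = 4, adjusted p = 0.0491). Perm1, a muscle partner of PGC-1 and ERR, fell by 0.33 in TA (SD 0.18, n = 4, adjusted p = 0.0557), where Rxrb fell by 0.23 and Nr4a1 rose by 0.51. Of 14 list genes given with an SD in gastrocnemius, 0 were called without pair 3 or pair 4 and 9 with the processed signals. Of 16 that met the same naming rule in TA, 0 were called without pair 1, 5 with the processed signals and 6 with an offset of 0, and loess alone ended the calls of Twnk and Polg.

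**Figure D4:**
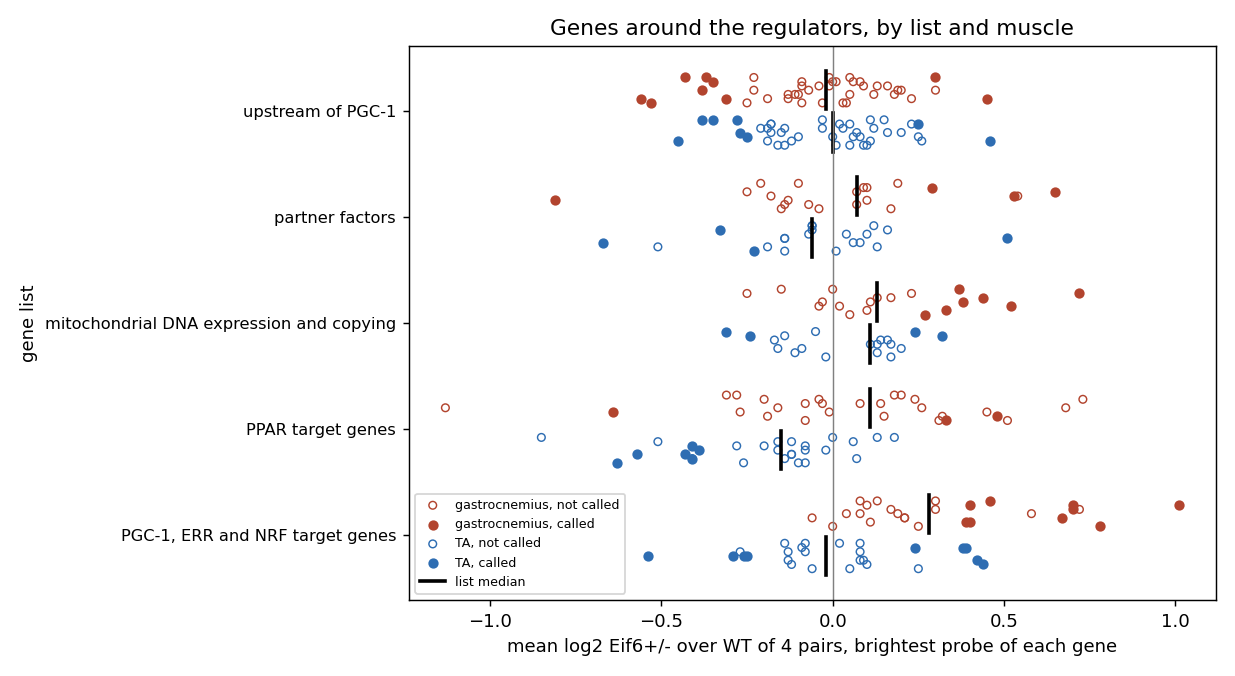
Mean log2 ratio of Eif6+/- over WT for each tested gene of 5 lists, in gastrocnemius (red) and TA (blue), filled where called, with the list median as a black bar. The targets of PGC-1, ERR and the NRFs have a median of 0.28 in gastrocnemius and -0.02 in TA, and the PPAR targets 0.11 and -0.15.

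Whole muscle holds several cell and fibre types, and fewer cells of a type and less RNA per cell cannot be told apart in it. Slow-fibre markers varied most between the gastrocnemius pairs: all 6 were well above background, 0 were called, and their median log2 ratios in pairs 1 to 4 were 2.63, -1.45, -0.41 and -0.34. Their summed log2 signals in the 4 WT gastrocnemius samples were 12.97, 14.99, 14.78 and 16.56, and in the Eif6+/- samples 16.35, 14.07, 14.62 and 16.34, with Tnnt1 the strongest in WT and Myl2 in Eif6+/-. The WT sample of pair 1, lowest in slow-fibre signal, was also the lowest in Ppara, and the WT sample of pair 4, highest in slow-fibre signal, the highest in Ppara. In TA 3 of 6 slow-fibre markers fell (Tnni1, Tnnt1 and Tnnc1), with medians of -0.24, -0.82, -0.05 and -1.03. Their summed signals there were 11.15, 12.68, 11.19 and 12.20 in WT and 10.80, 11.39, 11.20 and 10.92 in Eif6+/-. Every WT TA sum lay below every WT gastrocnemius sum, while the brightest Ppara probe had the higher WT mean in TA, 9.82 against 8.83. The part of fibre type in the regulators' ratios was not tested.

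Leukocyte markers ran against the regulators in gastrocnemius, with medians of -1.09, 0.32, -1.55 and -0.08 in pairs 1 to 4 and 1 of 4 tested called (Cd74, lower). Cd68 had no named probe. Their summed log2 signals, strongest for Csf1r, were 12.80, 12.03, 13.25 and 11.99 in WT and 11.84, 11.99, 11.83 and 11.79 in Eif6+/-, so the WT samples of pairs 1 and 3 were the high ones. Connective tissue markers had medians of -0.43, 0.20, -0.75 and 0.00 in the same pairs, with 0 of 5 called. Their summed signals, strongest for Dcn, were 16.53, 15.92, 17.24 and 16.17 in WT and 16.33, 15.97, 15.85 and 16.38 in Eif6+/-. In TA pairs 1 to 4 the connective tissue medians were 0.42, -0.60, 1.33 and -0.35, with 0 of 5 called. TA pair 3, with the most extreme TA ratio of Ppargc1a A_51_P279038, had summed connective tissue signals of 14.70 in WT and 16.52 in Eif6+/-. Leukocyte medians in TA were 0.13, -0.24, 0.16 and -0.17, with 0 of 5 called. No marker of these lists was at background on every array. Their part in the regulators' ratios was not tested.

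Of the remaining markers, white fat gave 2 of 5 lower in gastrocnemius (Adipoq and Cfd) and 2 of 5 higher in TA (Plin1 and Retn), with Lep at background in TA. Blood gave 0 of 2 called in gastrocnemius and 3 of 3 lower in TA (Hba-a1, Alas2 and S100a9). Endothelium gave 1 of 5 lower in gastrocnemius (Tie1) and 2 of 5 lower in TA (Tie1 and Pecam1). Myelinated nerve gave 0 of 4 called in gastrocnemius and 2 of 4 lower in TA. Brown fat gave 1 of 2 higher in gastrocnemius (Cox8b) and 0 of 2 called in TA, with Ucp1 and Elovl3 at background. Skeletal muscle fibre gave Myh1 higher and Ckm and Atp2a1 lower in gastrocnemius, and Myh4 higher and Atp2a1 lower in TA, of 8 markers each. Of the heart muscle markers 1 of 3 could be tested, with 0 called. The part of each in the regulators' ratios was not tested.

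For a description of what ran in parallel over the 8 arrays, the 3 genes with the most similar log2 ratios were taken out of 12199. The 8 arrays fall into 2 muscles that may come from the same mice, and the highest of so many correlations over 8 points are high by selection. Closest to Ppargc1a were Fbxo36 (Pearson r = 0.99), E2f6 (r = 0.96) and Tagap (r = 0.96). Fbxo36 shared the drop from gastrocnemius to TA without the sign: its ratios were -0.09, -0.09, -0.03 and -0.04 in gastrocnemius and -0.21, -0.24, -0.30 and -0.21 in TA. Closest to Tfam were Tcf12 (r = 0.95), Dbndd2 (r = 0.94) and Lrrc75a (r = 0.94). Like Tfam, each had its lowest values in gastrocnemius pair 1 and TA pair 4, as Tcf12 at 0.06 and -0.03.

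**Figure D5:**
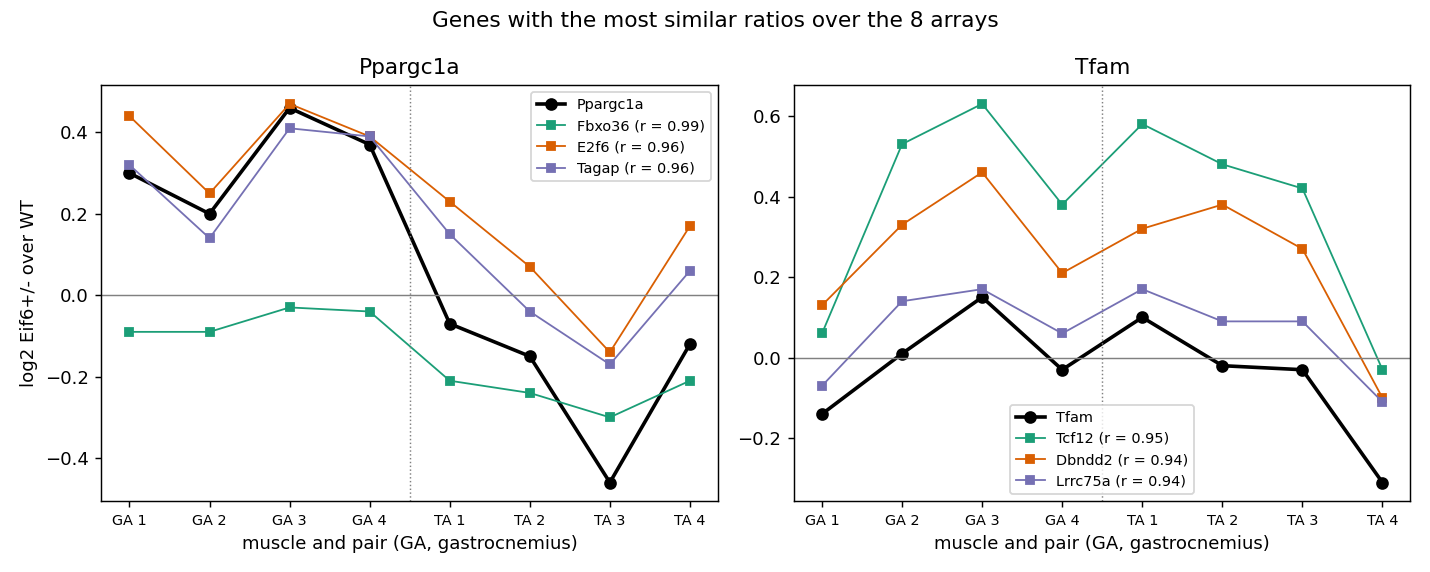
Log2 ratio of Eif6+/- over WT on the 8 arrays for Ppargc1a (left, black) and Tfam (right, black) with the 3 genes of highest Pearson correlation with each. Ppargc1a and its 3 genes are higher on all 4 gastrocnemius arrays (GA) than on TA pair 3, and Tfam and its 3 genes are at or near their lowest in TA pair 4.

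The promoter windows of the regulators called higher in gastrocnemius can be set beside the Tfam window. RefSeq windows (build GRCm38.p6) ran from 250 bases before to 50 bases after the start. Those of 9 of the 10 genes, 10 windows in all, were searched on both strands for 4 motifs. Ppargc1b was left out of this search and is not reported here. The core of the NRF-1 site, CGCATGCG, which reads the same on both strands, was in 3 of the 10 windows and in 1.87% of all 32851 windows. Those 3 belong to Ppara, Gabpa and Tfb2m, all called higher in gastrocnemius, while Ppargc1a and Polrmt, called as well, have no match. The ETS site bound by GABP, CCGGAAGT (ACTTCCGG on the other strand), was in 1 of 10 windows, that of Tfam, and in 3.89% of all. The ERR response element TCAAGGTCA (TGACCTTGA on the other strand, 0.423% of all windows) and the CRE TGACGTCA (1.79% of all) were in 0 of 10. No motif searched overlapped another in these windows. The windows with a match are printed 5′ to 3′ in the direction of the gene, with the matching letters in capitals: Ppara at chr15:85735526-85735825 (+ strand), Gabpa at chr16:84834874-84835173 (+ strand), Tfb2m at chr1:179546227-179546526 (- strand) and Tfam at chr10:71237995-71238294 (- strand).
Ppara: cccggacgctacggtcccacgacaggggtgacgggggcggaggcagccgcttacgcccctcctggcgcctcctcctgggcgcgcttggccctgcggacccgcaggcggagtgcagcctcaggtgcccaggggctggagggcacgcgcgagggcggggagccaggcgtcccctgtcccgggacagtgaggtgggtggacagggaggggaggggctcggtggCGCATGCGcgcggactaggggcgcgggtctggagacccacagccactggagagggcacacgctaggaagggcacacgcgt
Gabpa: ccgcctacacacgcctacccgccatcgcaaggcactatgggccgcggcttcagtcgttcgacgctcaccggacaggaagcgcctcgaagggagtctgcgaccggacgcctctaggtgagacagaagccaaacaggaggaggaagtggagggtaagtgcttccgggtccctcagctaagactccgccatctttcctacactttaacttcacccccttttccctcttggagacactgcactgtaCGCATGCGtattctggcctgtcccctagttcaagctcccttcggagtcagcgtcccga
Tfb2m: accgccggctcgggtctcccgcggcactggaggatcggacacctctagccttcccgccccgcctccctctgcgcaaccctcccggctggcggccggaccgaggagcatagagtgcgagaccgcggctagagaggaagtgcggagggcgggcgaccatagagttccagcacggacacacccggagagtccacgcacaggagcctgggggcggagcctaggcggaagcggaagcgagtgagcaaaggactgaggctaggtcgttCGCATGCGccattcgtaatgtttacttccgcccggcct
Tfam: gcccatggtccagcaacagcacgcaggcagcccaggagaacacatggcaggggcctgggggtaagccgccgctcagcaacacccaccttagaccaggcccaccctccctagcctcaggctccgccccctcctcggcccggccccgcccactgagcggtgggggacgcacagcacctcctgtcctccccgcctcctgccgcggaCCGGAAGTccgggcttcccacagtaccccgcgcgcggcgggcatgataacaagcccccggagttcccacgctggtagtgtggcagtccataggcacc

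The NRF-1 letters begin at base 221 of the Ppara window, base 243 of the Gabpa window and base 263 of the Tfb2m window, and the ETS letters at base 204 of the Tfam window. A match describes the letters of a window and is no measured binding, and the other windows lack these letters only within their 300 bases.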

How the data were processed

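RNA of Eif6+/- (Cy5) and WT (Cy3) mice was compared on 4 gastrocnemius and 4 TA arrays, with 1 mouse of each genotype per array. Per the file headers, the authors deposited the output of Feature Extraction 10.5.1.1: raw intensities of spots and background, processed intensities that the scanner software background-subtracted and dye-normalized, and their ratio of Cy5 over Cy3 as log10. The authors also deposited a table of log2 ratios of Cy5 over Cy3, made by loess of uncorrected intensities. Its file states no scale, and scale, centring and direction were settled by comparison with the scanner values (r at least 0.999963, slope 1). Its column medians were 0.00257, 0.000831, -0.00441 and 0.00375 for gastrocnemius and 0.00138, -0.000366, 0.00288 and 0.00212 for TA.

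From the median intensities, limma 3.58.1 (R 4.3.3) applied normexp (offset 50), loess within arrays and quantile normalization between all channels, without control and outlier spots. Spots of a probe were averaged. Tested were probes with at least 1 channel well above background on all 4 arrays of the muscle: 23802 for gastrocnemius, 23391 for TA and 22765 for comparisons of both. Tests were two-sided, with Benjamini-Hochberg adjustment. Alternatives were other normalizations, filters and thresholds, the deposited table, SAM (rewritten in R, as the package was not installed), 1 fit over both muscles, the pair number as a block, and each array left out. Scripts were tested on simulated data. RefSeq accessions named 27235 of 55681 probes (gene table of assembly GRCm38.p6).

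All 10 regulators and Eif6 were named whatever their values. Per list and muscle, the 2 largest rises and 2 largest falls among genes called with 1 sign on all 4 arrays were named, and the 3 genes most like Ppargc1a and Tfam. List genes and markers given without an SD were named after their values were seen. Some list genes and markers are not reported here. Members and lists were chosen with earlier results of these data known.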

Additional observations from a re-analysis of the deposited data

Results flagged for a closer look

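In each muscle the 4 log2 ratios and the 4 WT signals of every tested probe of the regulators and of Eif6 were screened for a sample far from the other 3. Of 76 groups of 4 values, 4 held such a sample, and chance alone marks about 1 in 20. Ppargc1a A_55_P2011702 had a WT signal of 7.73 in gastrocnemius pair 2, with the others from 6.80 to 6.96. Ppargc1b had a log2 ratio of -0.52 in TA pair 4, with the others from -0.09 to -0.04. Nrf1 A_55_P2000077 had a WT signal of 7.50 in gastrocnemius pair 4, with the others from 7.70 to 7.71. Gabpa A_51_P364984 had a WT signal of 7.30 in gastrocnemius pair 4, with the others from 7.08 to 7.10.

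Ppargc1a A_51_P279038 is given here because its log2 ratio was above 0 in all 4 gastrocnemius pairs and below 0 in all 4 TA pairs. The ratios differed by 0.53, and the limma test of that difference gave an adjusted p of 0.636, which misses the threshold.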

How the results depend on the processing

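Calls of all probes in gastrocnemius (3275) became 5459 with SAM at a false discovery rate of 0.1, 5174 with 1 fit over both muscles and 1080 at adjusted p under 0.05, and with a pair left out they ranged from 0 to 2956. The 7 regulator calls became 4 with normexp offset 0, 1 with the processed signals and 0 at adjusted p under 0.05 (0 to 5 with a pair left out). Calls in TA (3555) became 2293 with offset 0, 1781 with the processed signals, 5585 with no filter, 1689 with SAM at 0.05 and 1393 at adjusted p under 0.05 (113 to 3538 with a pair left out, lowest without pair 1). The 1 regulator call in TA became 3 with loess alone, 3 with the deposited table, 2 with SAM at 0.1, and 0 with offset 0, with SAM at 0.05 and at adjusted p under 0.05 (0 to 1 with a pair left out).

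The difference between muscles gave 1 call with the processed signals and 1 with no filter, neither a regulator, and 0 under the other alternatives. WT calls (4203) became 2334 with loess alone and 2397 at adjusted p under 0.05 (2473 to 4163 with an array left out). The 8 WT regulator calls became 1 with loess alone, 5 with offset 0, 0 with the processed signals, 5 with no filter and 3 at adjusted p under 0.05 (3 to 8 with an array left out). Without a filter or with fewer arrays the number of tested probes or samples changes by construction, and for the other alternatives the cause was not tested. No called value of a regulator or Eif6 probe changed sign. Signal over background and the 4 pairs per muscle limit all of these counts.

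The labels do not say that a pair number stands for the same mice in both muscles. Deviations of same-numbered arrays correlated at -0.14, 0.02, -0.36 and 0.09, and not every array correlated best with its own number. With the replicate block the difference gave 0 calls (limma, 1414 at an unadjusted p under 0.05), and the WT comparison 2895, with 5 regulator probes.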
